A study of Rattus norvegicus with 6 samples.

Results

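The chemokine gene Ccl20 and 9 other genes of the inflammatory response of keratinocytes (Cxcl1, Cxcl2, Ccl2, Il1a, Il1b, Il18, Nfkbia, Tnfaip3 and Icam1) were followed in an immortalized line of rat keratinocytes, with and without heavy-ion irradiation. The line came from back skin of newborn male Sprague-Dawley (CD) rats. The 3 unirradiated samples had no treatment, and the 3 irradiated samples were exposed to a dose of 3 Gy from 56Fe ions at 1.01 GeV per nucleon, fast iron nuclei of the kind found in cosmic radiation. All samples were of this line, and each was hybridised to 1 Affymetrix rat 230 2.0 array. The labels give no time from exposure to RNA extraction and do not say whether replicates were separate cultures, so the spread between them may be technical.

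A member was measured by each probe set whose platform annotation gave it as the only symbol. This rule found 11 probe sets for the 10 genes, out of 31042 probe sets and 14217 genes with a single symbol. Where a gene had several, the probe set with the highest mean intensity over all 6 arrays gave its value. The group was put together with results of these arrays known: Ccl20 was chosen by its fall between these same groups, and the other 9 genes were listed beside it as inflammatory genes of keratinocytes. The values of Ccl20 are therefore given as a description, with no test.

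Keratinocytes are the cells that form the epidermis, and they also act as its sentinels. Interleukin-1, tumour necrosis factor, interleukin-17 and microbial products make them release chemokines, largely through the transcription factor NF-kappaB. In resting cells NF-kappaB is held in the cytoplasm by IkappaB proteins, and it induces its own inhibitors Nfkbia (IkappaB alpha) and Tnfaip3 (the ubiquitin-editing protein A20) when it is released. Ccl20 attracts dendritic cells and T cells that carry the receptor Ccr6, while Cxcl1 and Cxcl2 attract neutrophils through Cxcr2 and Ccl2 attracts monocytes through Ccr2.

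Promoters are shown for the 3 members that lay lower on every irradiated array and, beside them, for the inhibitor gene Nfkbia and the adhesion gene Icam1, which did not. They were read from the RefSeq table of rat assembly GRCr8, which held 9 of the 10 members by symbol. Each sequence is the 250 bases before the start site, 5′ to 3′ along the gene, at chr9:91836909-91837158 (plus strand) for Ccl20, chr14:17479322-17479571 (minus strand) for Cxcl1, chr1:15543980-15544229 (minus strand) for Tnfaip3, chr6:78597073-78597322 (minus strand) for Nfkbia and chr8:27829595-27829844 (plus strand) for Icam1. Capitals mark matches, on either strand, to a loose kappaB motif (GGG, any 5 bases and CC).
Ccl20: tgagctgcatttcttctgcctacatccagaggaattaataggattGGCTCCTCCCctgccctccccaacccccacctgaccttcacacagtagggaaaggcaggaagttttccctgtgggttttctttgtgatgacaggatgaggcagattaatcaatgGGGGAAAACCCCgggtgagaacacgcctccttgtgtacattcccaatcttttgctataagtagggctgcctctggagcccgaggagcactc
Cxcl1: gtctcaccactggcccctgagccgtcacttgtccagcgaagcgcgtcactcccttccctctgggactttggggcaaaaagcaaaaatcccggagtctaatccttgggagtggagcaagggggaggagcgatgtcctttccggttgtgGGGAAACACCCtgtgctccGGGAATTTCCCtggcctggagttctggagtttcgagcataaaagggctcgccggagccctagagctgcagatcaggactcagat
Tnfaip3: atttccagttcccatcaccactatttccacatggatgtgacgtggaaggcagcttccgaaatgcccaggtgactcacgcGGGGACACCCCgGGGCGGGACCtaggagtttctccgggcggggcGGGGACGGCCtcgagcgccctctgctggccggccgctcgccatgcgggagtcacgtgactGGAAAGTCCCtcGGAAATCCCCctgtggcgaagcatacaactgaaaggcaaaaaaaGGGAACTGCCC
Nfkbia: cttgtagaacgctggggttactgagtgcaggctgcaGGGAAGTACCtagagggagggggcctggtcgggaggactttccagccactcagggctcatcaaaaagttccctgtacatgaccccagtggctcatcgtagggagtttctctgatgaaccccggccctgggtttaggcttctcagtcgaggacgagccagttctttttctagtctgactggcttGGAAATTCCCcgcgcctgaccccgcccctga
Icam1: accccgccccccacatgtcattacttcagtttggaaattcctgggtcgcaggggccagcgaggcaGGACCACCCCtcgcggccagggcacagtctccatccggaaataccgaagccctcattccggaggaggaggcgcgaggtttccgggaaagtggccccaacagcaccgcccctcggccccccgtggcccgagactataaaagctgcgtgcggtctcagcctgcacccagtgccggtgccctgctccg

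The loose kappaB motif was found upstream of 7 of the 9 members with a promoter, against 42.3% of all 33469 promoters searched over the same 250 bases. A stricter kappaB form was added after the expression values had been seen: GGG, a purine, any base, A or T, a pair of pyrimidines and CC, so that each of its matches is also a match to the loose form. It was found upstream of 5 of the 9 members (Ccl20, Cxcl1, Cxcl2, Nfkbia and Tnfaip3) and of 3.54% of all promoters. Upstream of Ccl20 the run GGGGAAAACCCC began 91 bases before the start site, and upstream of Cxcl1 the run GGGAATTTCCC began 84 bases before it. Icam1 held a loose match alone in this window, and Il1a and Il1b held none. The AP-1 motif TGANTCA was found upstream of 2 of the 9 members, Il1a and Tnfaip3, and of 6.34% of all promoters. The TATA box TATAAA was found upstream of 3, Il1a, Il1b and Icam1, and of 12.9% of all promoters. Both strands were searched, and a match of letters does not show that a factor binds there. Members with the stricter form thus included genes that lay lower after irradiation and the gene Nfkbia, whose groups overlapped.

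**Figure D1:**
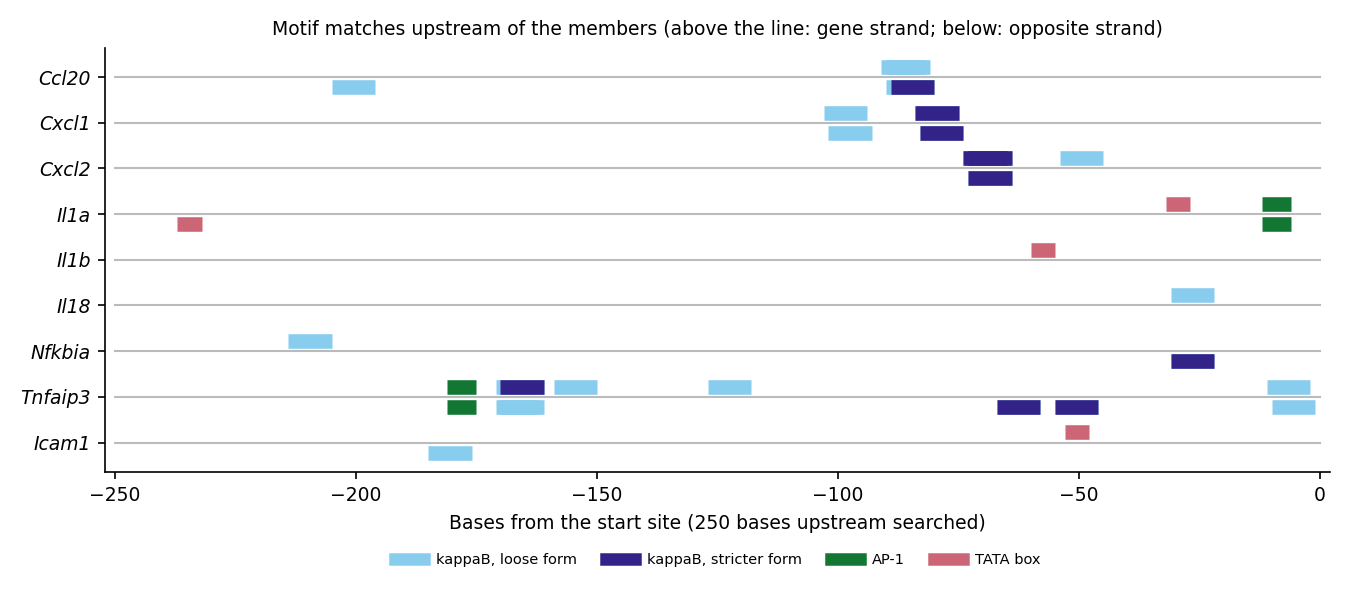
Motif matches in the 250 bases upstream of the 9 members with a promoter in the RefSeq table, by distance from the start site; marks above a line are on the gene's strand and marks below it on the opposite strand. The stricter kappaB form (dark) appears in 5 genes, Ccl20, Cxcl1, Cxcl2, Nfkbia and Tnfaip3, and the loose form (light) in 7.

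On the arrays, Ccl20 was lower in all irradiated samples, Cxcl1 and Tnfaip3 lay lower too but did not pass the test, and Icam1, Nfkbia and Il1a showed no difference beyond the spread between arrays. Cxcl2, Ccl2, Il1b and Il18 were too dim to test. Values are linear probe set intensities. Log2 changes are of log2(intensity + 16), irradiated minus unirradiated, and for dim genes they understate the change. The limma fit covered the 18632 probe sets at or above the 40th percentile of mean intensity (18.0 units), with p-values adjusted over all of them and a threshold of 0.05. Of the members, 6 passed that filter. Ccl20 is left out of the counts of calls because of how it was chosen. Of the 5 others, limma called 0 lower and 0 higher, and at an unadjusted p under 0.05 it gave 1 lower (Cxcl1) and 0 higher. Counted with 1 probe set per gene, the fit called 80 of 10354 genes lower (0.773%) and 207 higher (2.00%), and at an unadjusted p under 0.05 the shares were 6.93% and 8.77%. The 3 irradiated values lay below all 3 unirradiated ones in 2 of these 5 members (Cxcl1 and Tnfaip3) and above them in 0, against 10.1% and 11.8% of all tested genes. Because the members were proposed with these results known, the counts describe them and are no evidence about the group.

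**Figure D2:**
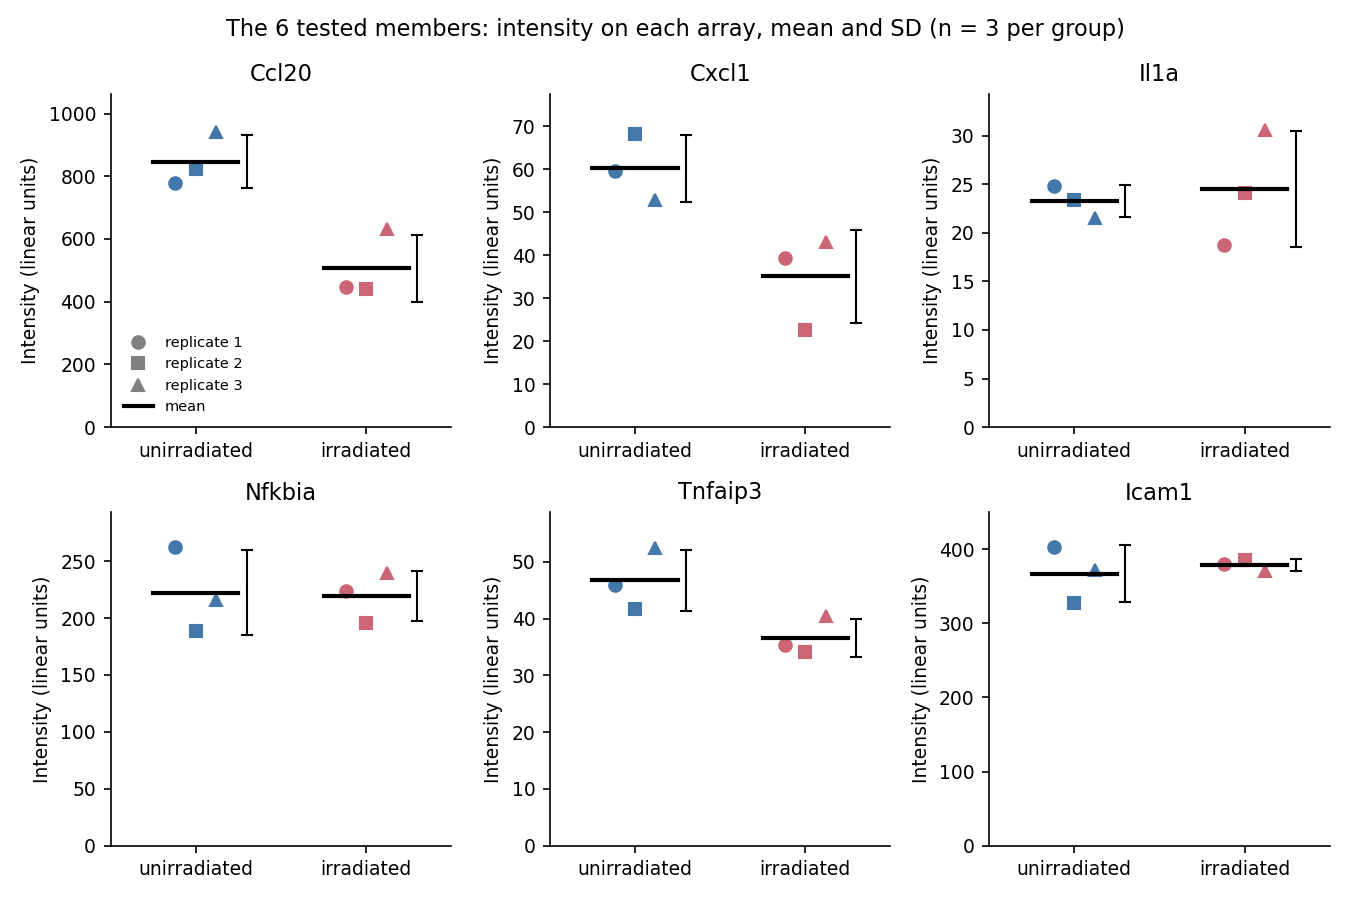
Intensity (linear units, axis from 0) of the 6 tested members on each array; points are arrays, black lines group means and bars the SD (n = 3 per group). The groups do not overlap for Ccl20, Cxcl1 and Tnfaip3, and they overlap for Il1a, Nfkbia and Icam1.

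Ccl20 lay far above the filter on every array. Its intensity was 777.2, 822.5 and 940.0 on the unirradiated arrays and 446.5, 441.3 and 630.2 on the irradiated ones. The groups did not overlap, and irradiated replicate 3 stood nearest to the unirradiated values. The mean went from 847 ± 84.0 to 506 ± 108 (SD, n = 3), which left 0.598 of the unirradiated level. On the log2 scale the change was -0.74 ± 0.13 (SE). It was -0.90 without irradiated replicate 3, and -0.66 and -0.65 without irradiated replicates 1 and 2.

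**Figure D3:**
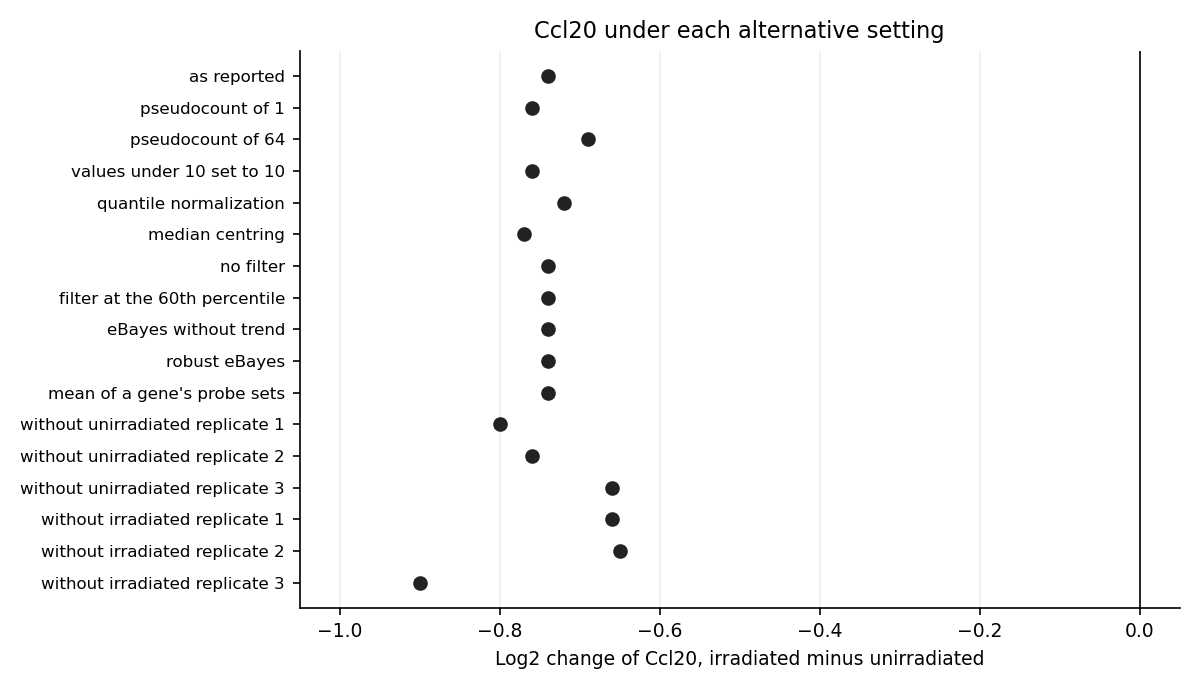
Log2 change of Ccl20, irradiated minus unirradiated (horizontal axis), as reported and under 16 other settings, 1 point each. All lie between -0.90 and -0.65, the lowest without irradiated replicate 3 and the highest without irradiated replicate 2.

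Cxcl1, the neutrophil chemokine, passed the filter at a mean of 47.6 units. It was at 59.5, 68.3 and 52.9 without irradiation and at 39.4, 22.7 and 43.1 with it. Every irradiated value was below every unirradiated one, with irradiated replicate 2 lowest. The mean went from 60.2 ± 7.73 to 35.1 ± 10.9 (SD, n = 3), a ratio of 0.582. The log2 change was -0.60 ± 0.18 (SE; 95% confidence interval -1.00 to -0.20). It missed the threshold (limma adjusted p = 0.148, and 0.113 to 0.413 over the alternatives, except the filter at the 60th percentile, which left Cxcl1 out). Its size depended on the constant added before the logarithm: it was -0.81 with 1 and -0.33 with 64. Without irradiated replicate 2 it was -0.41.

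The other chemokines of the group gave no usable level. Cxcl2, the close relative of Cxcl1, was at 5.6, 19.8 and 11.4 without and 10.1, 6.8 and 13.2 with irradiation, so that the groups overlapped within a few units. Ccl2 was at 1.1, 0.5 and 1.1 without and 0.8, 1.8 and 0.8 with irradiation, near 0 on every array. Both probe sets had a mean over all arrays (11.2 and 1.02) under the filter and under the 30 units below which a probe set counted as dim. No fold change is given for them.

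The interleukin-1 family members were all dim. Il1a, a cytokine that keratinocytes store and release on damage, was at 24.8, 23.4 and 21.5 without and 18.7, 24.1 and 30.6 with irradiation. The irradiated arrays held both the lowest and the highest value, and the log2 change was 0.04 (95% confidence interval -0.35 to 0.42, limma adjusted p = 0.960). The sign of this change turned without irradiated replicate 3 (-0.07). A second, dimmer probe set of Il1a ranged from 8.8 to 23.9 without and from 10.9 to 12.1 with irradiation, and was not tested.

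Il1b, the secreted interleukin-1 that is cut by caspase-1, was at 18.5, 9.0 and 10.6 without and 9.5, 14.9 and 13.0 with irradiation. Il18, which is processed by the same protease, was at 12.6, 25.6 and 16.5 without and 18.2, 16 and 14.4 with it. In both the irradiated values lay inside the unirradiated range. The mean of Il18 over all arrays, 17.2, was just under the filter, and that of Il1a, 23.8, was the nearest above it. At the limit of 30 for dim probe sets, Il1a was the nearest below and Tnfaip3, at 41.7, the nearest above.

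**Figure D4:**
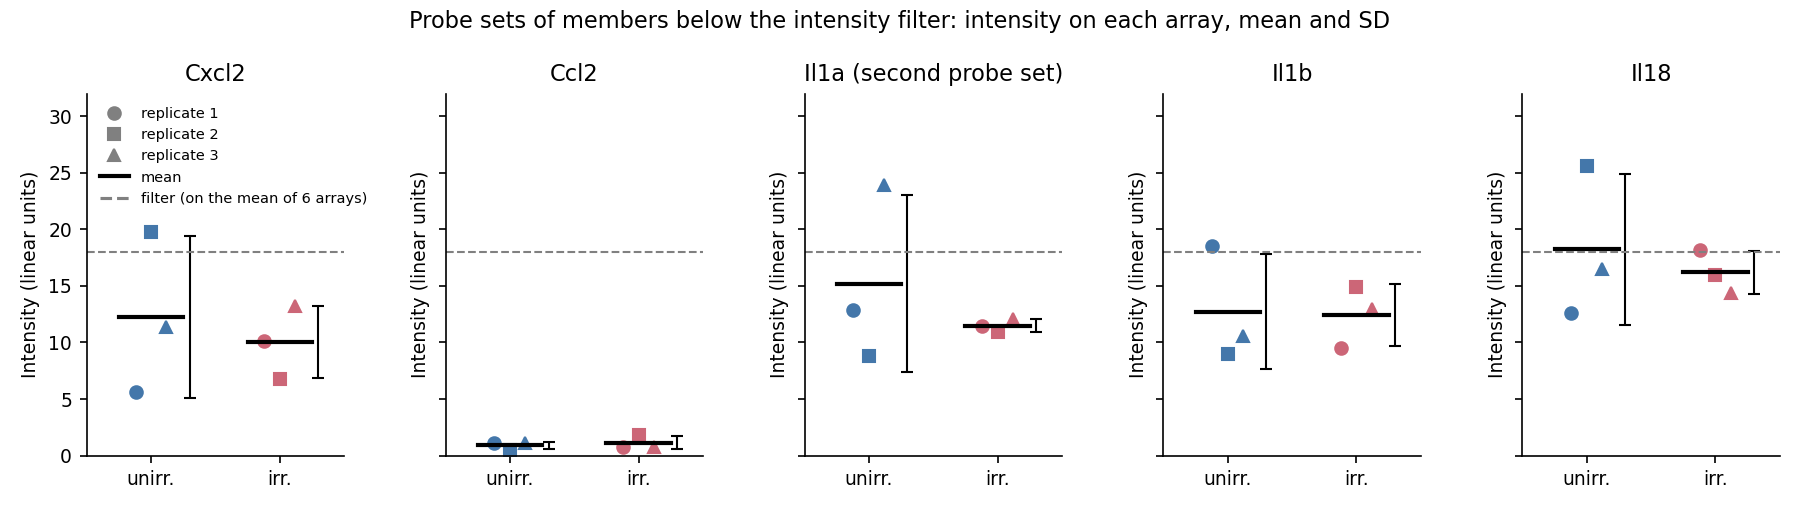
Intensity (linear units) of the 5 probe sets of members that fell below the filter, on each array; points are arrays, black lines group means, bars the SD (n = 3) and the dashed line the filter of 18.0, which applied to the mean of all 6 arrays. The groups overlap in every panel, and Ccl2 lies near 0 throughout.

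Of the 2 inhibitors that NF-kappaB induces, only Tnfaip3 had groups that did not overlap, and the difference between the 2 genes was not tested. Tnfaip3, which removes activating ubiquitin chains from the receptor complexes, was at 46.0, 41.7 and 52.5 without and 35.4, 34.1 and 40.4 with irradiation. The irradiated values were all lower, although the groups came within 2 units of each other. The log2 change was -0.25 ± 0.15 (SE; 95% confidence interval -0.58 to 0.08), which did not pass (limma adjusted p = 0.530, and 0.392 to 0.730 over the alternatives).

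Nfkbia, the main IkappaB, was at 262.6, 188.3 and 216.0 without and 223.9, 195.9 and 239.3 with irradiation. All irradiated values lay inside the unirradiated range. The log2 change was -0.01 (95% confidence interval -0.28 to 0.27, limma adjusted p = 0.988), and leaving out single arrays moved it between -0.11 and 0.11.

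Icam1, the adhesion molecule by which leukocytes hold on to activated keratinocytes, was at 402.4, 326.6 and 372.0 without and 379.8, 385.7 and 370.0 with irradiation. The irradiated values were close together and inside the unirradiated range. Its log2 change was 0.05 (95% confidence interval -0.16 to 0.26, limma adjusted p = 0.887). Leaving out unirradiated replicate 2 gave -0.03. A change of the size measured for Ccl20 lies outside this interval, as it does for Nfkbia but not for Cxcl1. The intervals of Il1a and Tnfaip3 cannot decide this. Both genes were far fainter than Ccl20, and the constant added before the logarithm shrinks their changes more. With a constant of 1 the change was -0.34 for Tnfaip3 and -0.76 for Ccl20. With 64 it was -0.14 for Tnfaip3 and -0.69 for Ccl20. Ccl20 was chosen by its own change, and its difference from the other genes was not tested.

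Within the irradiated group, replicate 3 was the highest of the 3 arrays in 5 of the 6 tested members, all but Icam1. That array was the highest irradiated one for 34.3% of all tested probe sets. Over the 6 arrays, the Pearson r of log2 values with those of Ccl20 was 0.93 for Tnfaip3 and 0.84 for Cxcl1. It was 0.15 for Il1a, 0.12 for Nfkbia and -0.34 for Icam1. Among 10353 other tested genes the median r was -0.02, and 77 genes had a higher r than Tnfaip3 and 348 a higher one than Cxcl1. These correlations mix the difference between groups with the spread inside them, over 6 arrays, and are given as a description.

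The 5 genes whose pattern was most like that of Ccl20 by Pearson r were Zfyve26 (0.992), Aldh9a1 (0.991), Cad (0.990), Zkscan5 (0.986) and Kctd2 (0.985). Cad, the enzyme that starts pyrimidine synthesis, was at 301.6, 310.9 and 311.5 without and 254.9, 256.0 and 279.1 with irradiation. Like Ccl20, it was lower on every irradiated array, with irradiated replicate 3 the highest of them. Its log2 change of -0.21 was smaller than that of Ccl20 and did not pass (limma adjusted p = 0.322), and it was -0.09 with the mean of the gene's probe sets. Those of the other 4 genes lay between -0.29 and -0.04 and did not pass either. A high r thus did not come with a change as large.

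The members act in a wider pathway. With earlier results of these arrays known, 148 further genes had been listed for it by role. Of these, 125 were named on the array and 83 passed the filter. By limma 0 of the 83 rose and 0 fell. At an unadjusted p under 0.05 there were 4 higher and 8 lower, against 8.77% and 6.93% of all tested genes. The median log2 change was -0.04, against 0.00 over all tested genes, and 48 of the 83 changes were below 0 (57.8%, against 50.2% of all tested genes). The groups did not overlap in 14 genes that lay lower (16.9%) and 9 that lay higher (10.8%), against 10.1% and 11.8% of all tested genes. Because of how the lists were made, these counts and those of the single lists are given as a description.

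**Figure D5:**
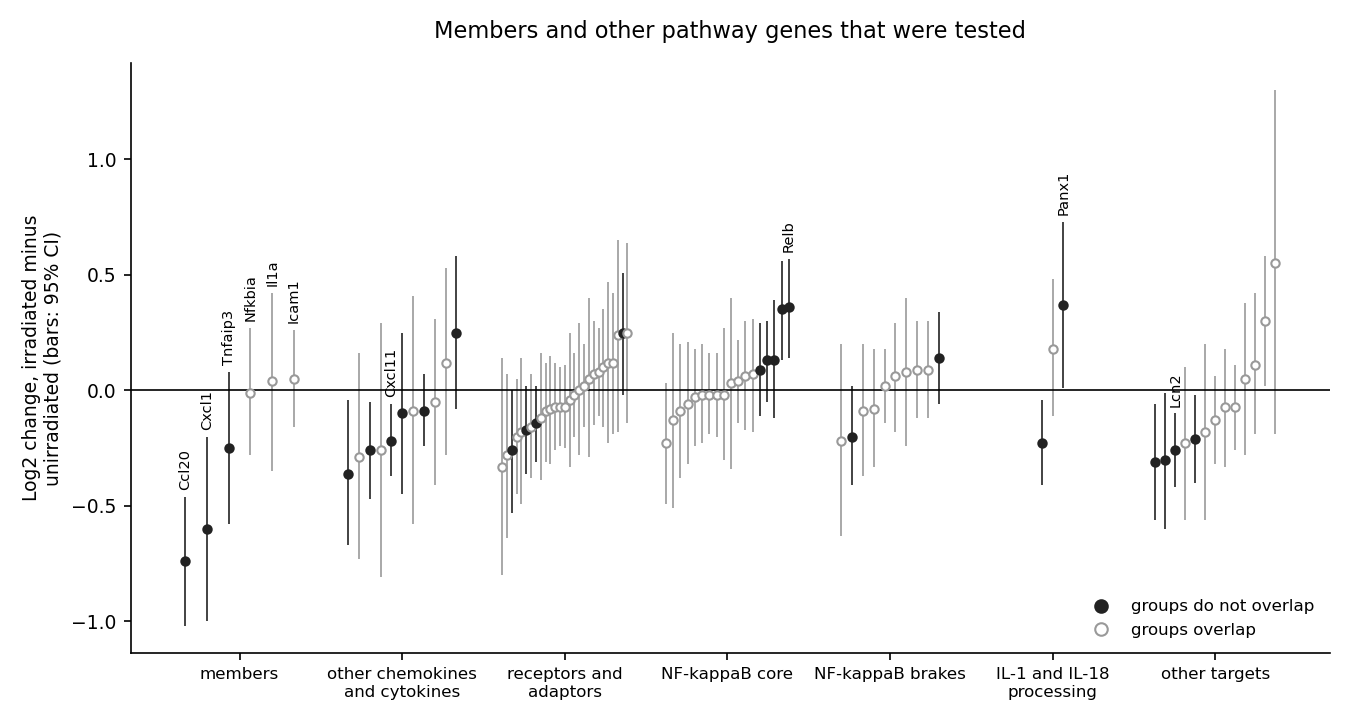
Log2 change, irradiated minus unirradiated, of the 6 tested members and of the tested genes of 6 pathway lists; bars are 95% confidence intervals and filled points are genes whose groups do not overlap. Ccl20 (-0.74) and Cxcl1 (-0.60) lie below every other pathway gene shown, and the filled points of the NF-kappaB core all lie above 0.

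Most other chemokines and cytokines were not measurable here: 17 of the 28 on the array were under the filter, among them Tnf, at 12.2 ± 10.1 without and 5.30 ± 4.52 with irradiation (SD, n = 3), and Il6, at 10.5 ± 2.12 and 9.17 ± 3.55. Of the 11 tested, 0 passed limma's adjusted threshold, and the median log2 change was -0.10. At an unadjusted p under 0.05, 3 lay lower and 0 higher, against 6.93% and 8.77% of all tested genes. The groups did not overlap in 5 that lay lower (45.5%, against 10.1% of all tested genes) and 1 that lay higher (9.09%, against 11.8%). Cxcl11, a ligand of the chemokine receptor Cxcr3 of T cells, was at 1181 ± 37.6 and 1014 ± 16.9, a log2 change of -0.22 (limma adjusted p = 0.186). Il24, a cytokine of the interleukin-10 family, was at 517 ± 53.9 and 429 ± 24.6, a log2 change of -0.26 (limma adjusted p = 0.245).

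Receptors and adaptors that lead to NF-kappaB were mostly measured, 27 of 33. None of them passed limma (0 rose, 0 fell, and 0 at an unadjusted p under 0.05 in either direction), and their median was -0.07. Tlr4, the receptor for bacterial lipopolysaccharide, had a log2 change of -0.26 (limma adjusted p = 0.377), and Il17rc, a subunit of the interleukin-17 receptor, one of 0.25 (limma adjusted p = 0.425). The groups did not overlap in either gene, and these 2 were named for having the smallest p-values of the list. Over the whole list, the groups did not overlap in 3 genes that lay lower (11.1%) and 1 that lay higher (3.70%). The shares of all tested genes were 10.1% and 11.8%.

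The NF-kappaB core list holds the factor's subunits, the kinases that free it, other IkappaB proteins and further regulators, the ubiquitin-ligase genes Btrc and Cul1 among them. All 18 of its genes on the array were tested. By limma 0 rose and 0 fell, and the median was 0.01. At an unadjusted p under 0.05 there were 2 higher and 0 lower, against 8.77% and 6.93% of all tested genes. The groups did not overlap in 5 genes that lay higher (Relb, Nfkb2, Ikbkb, Btrc and Cul1, 27.8%, against 11.8% of all tested genes) and in 0 that lay lower. Relb and Nfkb2, which encode the 2 partners of the noncanonical NF-kappaB dimer, had the smallest p-values of this list. Relb was at 170.4, 155.1 and 168.0 without and 218.2, 209.7 and 216.3 with irradiation, and Nfkb2 was at 253.1, 234.5 and 251.2 without and 354.7, 296.1 and 304.8 with it. Both were thus higher on every irradiated array, the direction opposite to that of Ccl20. The log2 changes were 0.36 ± 0.10 and 0.35 ± 0.10 (SE), and neither passed (limma adjusted p = 0.111 and 0.118). Over the alternatives the lowest adjusted p of Relb was 0.0672 and that of Nfkb2 was 0.0854. Nfkb1 and Rela, the partners of the canonical dimer, had log2 changes of -0.02 and -0.03.

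Of 10 genes listed as restraining the pathway, 0 passed limma's adjusted threshold and 0 were under an unadjusted p of 0.05. Zfp36, which destabilises cytokine mRNA, had a log2 change of -0.20 (limma adjusted p = 0.432), and the ubiquitin ligase gene Birc2 one of 0.14 (limma adjusted p = 0.563). Among genes that process interleukin-1 and interleukin-18, 3 of 6 were tested and 0 passed limma. At an unadjusted p under 0.05 there were 1 lower and 1 higher, against 6.93% and 8.77% of all tested genes. The inflammatory caspase gene Casp4 was at 1048 ± 108 without and 890 ± 13.8 with irradiation, and the channel gene Panx1 at 62.7 ± 15.7 and 84.3 ± 7.28 (SD, n = 3). Casp1, the protease that matures both cytokines, was dim at 16 ± 4.74 and 13.5 ± 3.09 and was not tested.

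Of 24 other targets of NF-kappaB on the array, 13 were tested and 0 passed limma. The median of those tested was -0.13. At an unadjusted p under 0.05 there were 4 lower and 1 higher, against 6.93% and 8.77% of all tested genes. The groups did not overlap in 4 that lay lower (30.8%, against 10.1% of all tested genes) and in 0 that lay higher (against 11.8%). Lcn2, which encodes an iron-binding antimicrobial protein, was at 3486.7, 3398.3 and 3300.4 without and 3038.8, 2734.1 and 2741.9 with irradiation. It was lower on every irradiated array by a small step of -0.26 ± 0.07 on the log2 scale (SE), which did not pass (limma adjusted p = 0.109) and was -0.14 with quantile normalization. The survival gene Bcl2l1 had a log2 change of -0.31 (limma adjusted p = 0.236), and of -0.20 with the mean of its probe sets. Nos2, the inducible nitric oxide synthase, was the 1 gene of all pathway lists to be called in any refit. It was at 5.2, 54.7 and 10 without and 31.5, 34.5 and 35.4 with irradiation, with unirradiated replicate 2 far above the other unirradiated arrays. Nos2 was dim, at a mean of 28.6 over all arrays, and unirradiated replicates 1 and 3 lay under the filter value of 18.0. Its log2 change was 0.55 (limma adjusted p = 0.541), and without unirradiated replicate 2 it was 1.08 (limma adjusted p = 0.0183).

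The receptors of the chemokines were dim here. Ccr6, the receptor of Ccl20, was near 0 on every array, at 2.2, 1.6 and 2.0 without and 1.9, 3.6 and 2.6 with irradiation. Cxcr2 ranged from 2.2 to 19.0 over the 6 arrays and Ccr2 from 1.5 to 17.2, with overlapping groups in both. Receptor genes of interleukin-1 were listed with the receptors and adaptors instead: Il1r1 (mean 215) and Il1rap (44.9) passed the filter, and Il1r2 (2.70) did not. Of the 6 genes listed for receptors of the chemokines and of Icam1, only Itgal, a subunit of an Icam1 receptor, passed the filter, at a mean of 23.4. It had a log2 change of 0.02 (limma adjusted p = 0.981), which turned to -0.13 without unirradiated replicate 1. All 3 chemokine receptors (Ccr6, Cxcr2 and Ccr2) had means under the filter.

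Markers of the cells were read from the same arrays. All 13 keratinocyte markers measured were above the filter. Their summed intensity ranged from 39914 to 45528 without and from 32712 to 37018 with irradiation, a ratio of means of 0.820, and 5 of the 13 were called lower (Tp63, Krt15, Krt17, Sfn and, at a limma adjusted p = 0.0497, Krt14), against 0.773% of all tested genes. The other 8 were not called: in Krt5, Col17a1 and Pkp1 the irradiated values lay lower without overlap, and in Dsp, Lgals7, Itga6, Perp and Itgb4, whose log2 changes ran from -0.22 to 0.07, the groups overlapped. Ccl20 thus lay lower on the same arrays as several markers of its own cell type; the part of that in its values was not tested. In bulk RNA, fewer cells that make a transcript and less of it per cell cannot be told apart. Of 18 leukocyte markers 16 had a mean under 30 units, the pan-leukocyte marker Ptprc among them at 3.27 ± 1.91 and 3.20 ± 4.42 (SD, n = 3). The others were Cd14, at 116 ± 19.3 and 119 ± 19.1, and Fcer1g, and the summed intensity of the list was 284 to 358 without and 283 to 348 with irradiation. The sums of endothelial (45 to 83) and melanocyte (46 to 64) markers were low on all arrays, with all 6 markers of each under 30. Of 10 fibroblast markers 9 were under 30, while Col3a1 was at 413 ± 39.1 and 295 ± 13.9 and was called lower (log2 change -0.46, limma adjusted p = 0.0271), a call that ended without any array but unirradiated replicate 2. Col1a1, the other fibroblast marker tested, lay the other way, at 17.3 ± 3.53 and 36.1 ± 4.20 without overlap, and did not pass (log2 change 0.65, limma adjusted p = 0.0826). Col1a2, too dim to test, was also higher without overlap, at 4.43 ± 2.25 and 10.5 ± 1.50. The fibroblast sum, most of it from Col3a1 alone, was 457 to 532 without and 389 to 418 with irradiation. Its part in the members' values was not tested.

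Over the whole series, limma called 280 of 18632 probe sets higher (1.50%) and 105 lower (0.564%). Over these probe sets, Pearson r of log2 values was 0.984 to 0.988 for arrays of the same group and 0.980 to 0.984 for arrays of different groups. The labels give no hybridisation or scan batch, so none was tested.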

How the data were processed

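Trizol was used for extraction and biotin for labelling, per the labels' protocols, and the design text names BRB ArrayTools 3.3.0. The authors deposited linear intensities of probe sets; the step from scans to intensities is not given in the sources used here. A mean taken after trimming 2% at each end was 150.04 to 150.05 on all arrays, so the table was kept as deposited. Groups came from the source descriptions.

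Of 31099 probe sets, 57 controls were left out. Probe sets were named by the platform annotation (20826 probe sets with 1 symbol, 436 with several, 9780 with none); of 20758 matched by Entrez ID to RefSeq GRCr8, 0 symbols differed. Values were taken as log2(intensity + 16). The fit was by limma 3.58.1 under R 4.3.3 (lmFit, eBayes with an intensity trend, no covariate, two-sided) on probe sets at or above the 40th percentile of mean intensity, with Benjamini-Hochberg adjustment. Each group had 3 arrays, and this number limits the precision (log2 changes had a median SE of 0.14).

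The members, the lists and the tests were chosen with earlier results of these data known. Named genes were every member, the called genes of each pathway list (or the 2 with the smallest p), the 5 genes closest to Ccl20 by Pearson r and called markers of other cell types; a gene outside this rule was named after its values were seen. Of the 148 pathway genes listed, 23 were not named under 1 symbol. The fit was also tested on simulated data: a small part of 18632 simulated probe sets was given a change. It called 39% of those given a log2 change of 0.5 and 98% of those given 1. The simulated noise was normal and independent between probe sets, with the spread that the fit itself had estimated, so these shares may be too high for the arrays. Alternatives changed the pseudocount (1 or 64, or a floor of 10 in its place), the scaling (quantile or median), the filter (none, or the 60th percentile), the variance model (no trend, or robust), the threshold (unadjusted p under 0.001) and the use of several probe sets (their mean), or left out 1 array.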

Additional observations from a re-analysis of the deposited data

How the results depend on the processing

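The change of Ccl20 kept its direction in all 16 refits (-0.90 to -0.65). Its place past limma's threshold follows from how it was chosen and is no test; counted with it, the 1 member called lower became 0 without the intensity filter and without the variance trend, and was 0 to 1 when single arrays were left out (0 without irradiated replicate 1 or 2). Over all probe sets, 280 higher and 105 lower calls became 175 and 48 without the filter, 144 and 26 without the variance trend, and 151 to 220 and 42 to 70 without single arrays, where fewer arrays give less power. For the filter and the trend, the cause was not tested. Calls among pathway genes were 0 lower in every setting and 0 to 1 higher without single arrays (Nos2). For the named genes, 401 of 421 log2 changes under other settings kept their sign and their side of the threshold, 11 lost the call (Ccl20 and Col3a1), 9 small changes that were not called turned sign or reached 0 (Il1a, Nfkbia, Icam1 and Itgal) and 0 called changes turned sign. The setting of an unadjusted p under 0.001, counted among them, kept the fit unchanged, so no sign could turn there. No paired analysis was possible because the groups share no replicate numbers in the labels. Signal and the number of arrays limit the results: 4 of 10 members were under the filter, and a pseudocount of 64 moved the change of Cxcl1 to -0.33 and that of Tnfaip3 to -0.14.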
